A study of Mus musculus with 10 samples.

Results

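The genes described are those of the cytokines IL-4, IL-13 and IL-10 and of the way their signal is received: *Il4*, *Il13* and *Il10* for the cytokines, *Il4ra*, *Il13ra1*, *Il13ra2* and *Il10ra* for receptor chains, *Stat6* for the transcription factor, and *Chil3* as a gene that IL-4 is known to induce. They were chosen by name, and all 9 of them are among the 770 genes measured. Expression was read with the NanoString PanCancer Immune Profiling panel, which counts fluorescent barcodes hybridized to RNA without amplification, in 10 bulk mouse melanomas. All tumors came from YUMMER1.7 cells, a highly mutated mouse melanoma line with mutant Braf, and were taken 11 days after injection per the sample labels. In 5 tumors the host was a WT mouse (tumors 2, 3, 4, 5 and 6), and in the other 5 the host was a Siah2-/- mouse, labelled Siah2 KO (tumors 1, 2, 3, 5 and 6). Only the host lacked Siah2, an E3 ubiquitin ligase. The injected cells were the same in both groups, the age and sex of the hosts are not in the sample labels, and these name no drug. The series' design text names another melanoma line, another deleted gene and an earlier day, and the groups here follow the sample labels; the paper names the same line and gene as these labels but the earlier day for this assay. The deletion could not be checked, as the panel has no *Siah2* probe. Nothing in the labels states that each tumor is from its own mouse, so p-values measure the spread between these tumors only.

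IL-4 and IL-13 are type 2 cytokines made by T helper cells, innate lymphoid cells, mast cells, basophils and eosinophils. The IL-4 receptor alpha chain pairs with the common gamma chain to bind IL-4, or with IL-13 receptor alpha 1 to bind both cytokines, and either pair activates STAT6 through JAK kinases. IL-13 receptor alpha 2 binds IL-13 tightly and is mostly described as a decoy. In tumors this pathway is best known for driving macrophages to the alternatively activated state, while IL-10, through its own receptor and STAT3, restrains inflammatory genes of myeloid cells.

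Values are normalized counts, which are probe counts after background subtraction, scaled by the authors to 20 reference genes. Before scaling the counts summed to between 382883 and 581619 per tumor. The scaling factor ran from 0.918 to 1.32 for WT and from 1.03 to 1.6 for Siah2 KO tumors. Changes are differences in mean log2(value + 1), Siah2 KO minus WT, with limma's standard error (SE) and with p-values adjusted over all 770 genes. A gene is called at an adjusted p under 0.05. The median log2 fold change of all genes was 0.24, against −0.0074 when every tumor was scaled to the same median, so single changes are read beside that shift. Of all genes 41.0% were called, 31.3% higher and 9.74% lower in Siah2 KO tumors. Of all calls 76.3% were higher, against 51.7% after median scaling.

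Of the 9 genes, 3 were called higher in Siah2 KO tumors, none was called lower, and 6 were not called. The 3 were *Il13ra1*, *Il13ra2* and *Il10ra*, all receptor chains. In limma 4 genes, with *Stat6* added, passed an unadjusted p under 0.05, and all of these were higher. At the same cut 384 of all 770 genes passed, in either direction. The share called after adjustment, 3 of 9, is close to the 31.3% of all genes that were called higher. The count depends on the scaling, with 1 higher and 0 lower after median scaling and 1 higher and 2 lower after quantile normalization. It was 0 higher and 1 lower relative to the macrophage genes listed further on, and 0 were called by limma relative to leukocyte genes. Over all 770 genes the higher and lower calls were 163 and 152, 153 and 181, 96 and 208, and 109 and 128, in this order. The groups did not overlap for 3 genes, *Il13ra1*, *Il10ra* and *Stat6*, where 31.6% of all genes did not overlap. This holds for scaled values. Before scaling, the lowest Siah2 KO count of each was below its highest WT count. These counts were 916 and 1099 for *Il13ra1*, 232 and 380 for *Il10ra*, and 663 and 1038 for *Stat6*. The median log2 fold change of the 9 genes was 0.55, with a range from −0.78 to 1.37.

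**Figure D1:**
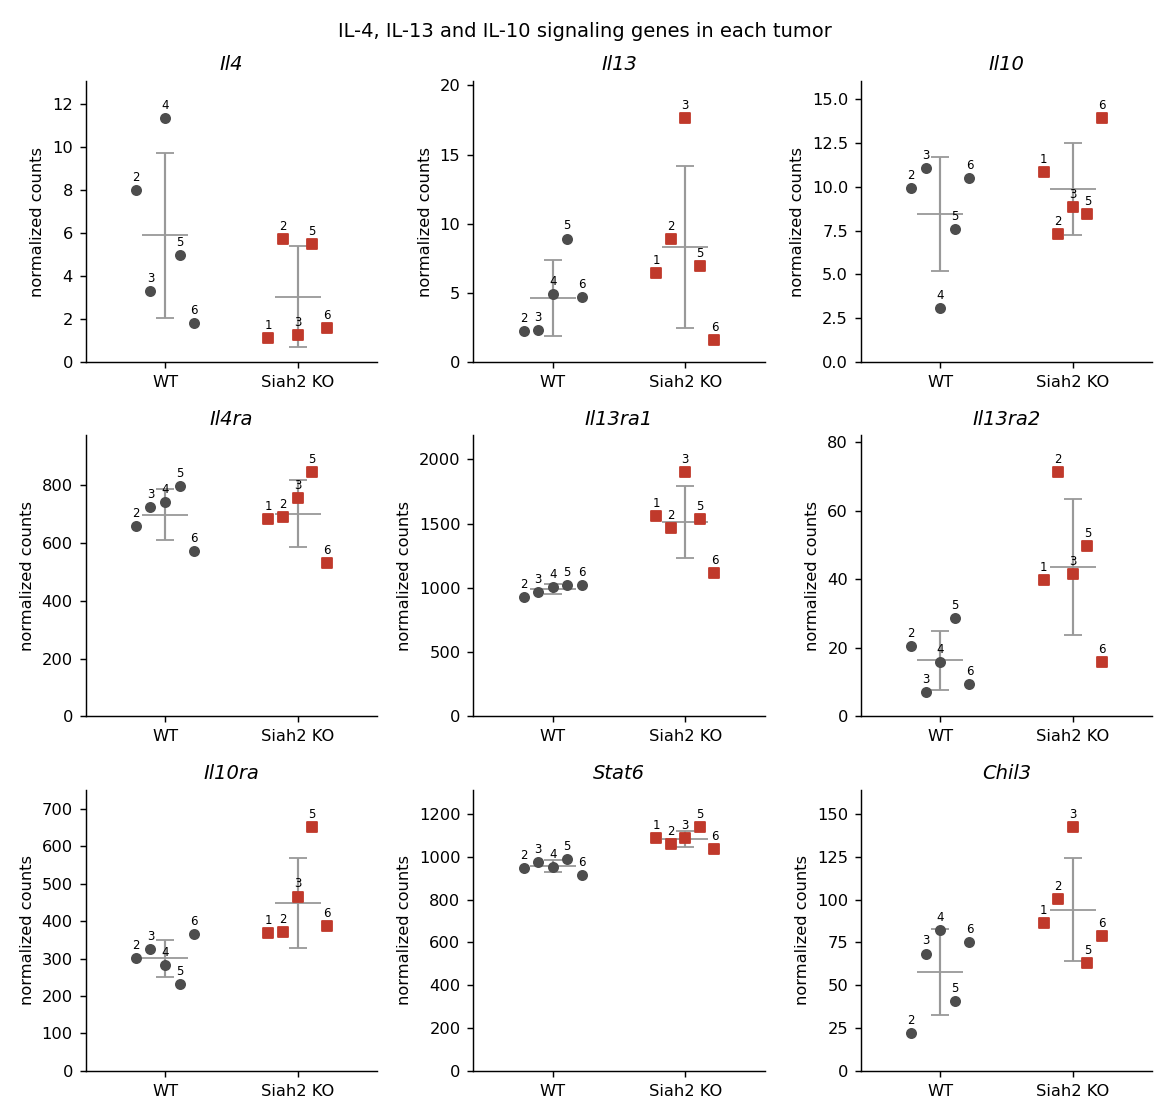
Normalized counts (linear axes from 0) of the 9 genes in 5 WT tumors (circles) and 5 Siah2 KO tumors (squares), each point labelled with the tumor's replicate number; bars give mean and SD. Groups of *Il13ra1*, *Il10ra* and *Stat6* do not overlap, and Siah2 KO tumor 6 is the lowest of its group for 5 of the 9 genes.

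*Il13ra1*, the chain that turns the IL-4 receptor into a receptor for IL-13, had 930.35, 971, 1009, 1025 and 1026 normalized counts in WT tumors 2, 3, 4, 5 and 6. It had 1563, 1465, 1900.5, 1536 and 1112 in Siah2 KO tumors 1, 2, 3, 5 and 6. The WT tumors lay close together, and every Siah2 KO tumor was above them, tumor 6 by the smallest margin. The means were 1515 ± 281 (SD, n = 5) in Siah2 KO and 992 ± 41.1 (SD, n = 5) in WT tumors. The log2 fold change was 0.59 (SE 0.13, adjusted p = 0.0049), and the exact permutation test gave p = 0.0079, the smallest that 5 against 5 tumors allow. Leaving out any 1 tumor left the call in place, with values from 0.50 to 0.70. The call was lost after quantile normalization, at 0.21 (adjusted p = 0.11), and after scaling to the positive control probes, at 0.43 (adjusted p = 0.45). Relative to the median of 8 leukocyte genes it was 0.25 (adjusted p = 0.27) and relative to that of 8 macrophage genes 0.13 (adjusted p = 0.53), also without a call. With a replicate block, possible in 8 of the tumors, the adjusted p was 0.053 at 0.58.

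*Il4ra*, the chain shared by the receptors of both cytokines, did not show this difference. It had 658, 725, 743, 798 and 572 normalized counts in the WT tumors and 683, 692, 758, 846 and 532 in the Siah2 KO tumors, in the same order of tumors as above. The groups overlapped over most of their range, and tumor 6 was the lowest in both. The mean was 702 ± 115 (SD, n = 5) against 699 ± 87.1 (SD, n = 5), and the 95% confidence interval of the log2 fold change was −0.31 to 0.31 (adjusted p = 1.0). A change of up to 1.24-fold in either direction thus lay within the interval. After quantile normalization *Il4ra* was called lower, at −0.39 (adjusted p = 0.019).

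A call for 1 chain and none for its partner does not show that their changes differ, so the log2 difference between the chains was formed within each tumor, where the scaling factor cancels. *Il13ra1* minus *Il4ra* was 0.50, 0.42, 0.44, 0.36 and 0.84 in WT tumors and 1.19, 1.08, 1.33, 0.86 and 1.06 in Siah2 KO tumors. The groups did not overlap, but WT tumor 6 and Siah2 KO tumor 5 were almost level. The difference was 0.59 larger in Siah2 KO tumors (95% confidence interval 0.33 to 0.86; two-sided exact permutation p = 0.0079, 0.048 after adjustment over 6 differences). Without any 1 tumor it lay between 0.54 and 0.67. The adjusted p was 0.048 in each of these fits. While the groups do not overlap, the exact test has little room to give another p, so this adds little. The level of a difference depends on the probes, and only its change between groups is read.

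*Il13ra2*, the decoy chain, had far fewer counts and the largest log2 fold change of the 9 genes. WT tumors had 20.5, 7.18, 15.9, 28.7 and 9.54 normalized counts, and Siah2 KO tumors 39.7, 71.3, 41.7, 49.8 and 16.0. In 4 of 5 Siah2 KO tumors it was above every WT tumor, while tumor 6 lay among the WT tumors. The mean was 43.7 ± 19.9 (SD, n = 5) against 16.4 ± 8.67 (SD, n = 5), a log2 fold change of 1.37 (SE 0.44, adjusted p = 0.029; exact permutation p = 0.024). In all 10 tumors it was above every negative control probe. The call was lost in 7 of 10 fits with 1 tumor left out (without WT tumor 3, 4 or 6, or Siah2 KO tumor 1, 2, 3 or 5), where the adjusted p reached 0.067, and the log2 fold change then lay between 1.14 and 1.40. It was also lost after median scaling, at 1.12 (adjusted p = 0.056), and relative to leukocyte or macrophage genes, at 1.03 (adjusted p = 0.086) and 0.91 (adjusted p = 0.11). *Il13ra2* minus *Il13ra1* rose by 0.78 with a 95% confidence interval of −0.23 to 1.8, so a difference between the changes of the 2 IL-13 receptor chains was not detected (exact permutation p = 0.12, adjusted 0.24).

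*Stat6*, the transcription factor that IL-4 and IL-13 activate, varied least. It had 949, 974, 953, 988 and 916 normalized counts in WT tumors and 1089, 1060.4, 1086, 1140.3 and 1037 in Siah2 KO tumors. The Siah2 KO tumors all lay above the WT tumors, but by little. The mean was 1083 ± 38.6 (SD, n = 5) against 956 ± 27.6 (SD, n = 5), a log2 fold change of 0.18 (SE 0.069) that did not pass the adjusted threshold (adjusted p = 0.059; exact permutation p = 0.0079). This is below the 0.24 by which the median of all genes lay above 0. After median scaling the value was −0.09 (adjusted p = 0.45), and after quantile normalization *Stat6* was called lower, at −0.24 (adjusted p = 0.026). Its RNA says nothing of the phosphorylation by which STAT6 is activated. Within tumors, *Il13ra1* minus *Stat6* was 0.41 larger in Siah2 KO tumors (95% confidence interval 0.14 to 0.68; exact permutation p = 0.016, adjusted 0.048). The groups of this difference overlapped, with 0.10 in Siah2 KO tumor 6 and 0.16 in WT tumor 6. Its call was lost, at an adjusted p of 0.071, without WT tumor 2, 3, 4 or 5.

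*Il10ra*, the chain of the IL-10 receptor that binds the cytokine and is found on most leukocytes, had 301, 325, 282, 233 and 366 normalized counts in WT tumors. In Siah2 KO tumors it had 369, 371, 466, 653 and 388. The groups were apart, though Siah2 KO tumors 1 and 2 were close to WT tumor 6, and Siah2 KO tumor 5 was highest by far. The mean was 449 ± 120 (SD, n = 5) against 301 ± 49.4 (SD, n = 5), a log2 fold change of 0.55 (SE 0.18, adjusted p = 0.033; exact permutation p = 0.0079). Without WT tumor 2, 4 or 5 or Siah2 KO tumor 3 the adjusted p was between 0.060 and 0.072. The call was also lost after median scaling, at 0.29 (adjusted p = 0.17), quantile normalization, at 0.22 (adjusted p = 0.24), and positive control scaling, at 0.39 (adjusted p = 0.51). General leukocyte genes moved in the same direction. Of 8 of them 5 were called higher (*Ptprc*, *Cd53*, *Itgb2*, *Lcp1* and *Cd48*, with log2 fold changes from 0.49 to 1.16), and their summed level was 6134 to 9289 normalized counts in Siah2 KO and 4153 to 5030 in WT tumors. Set against these genes' median in the same tumor, *Il10ra* differed by 0.21 (95% confidence interval −0.09 to 0.51; exact permutation p = 0.16, adjusted 0.24). In bulk tumors, more cells of a type and more RNA per cell cannot be told apart.

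**Figure D2:**
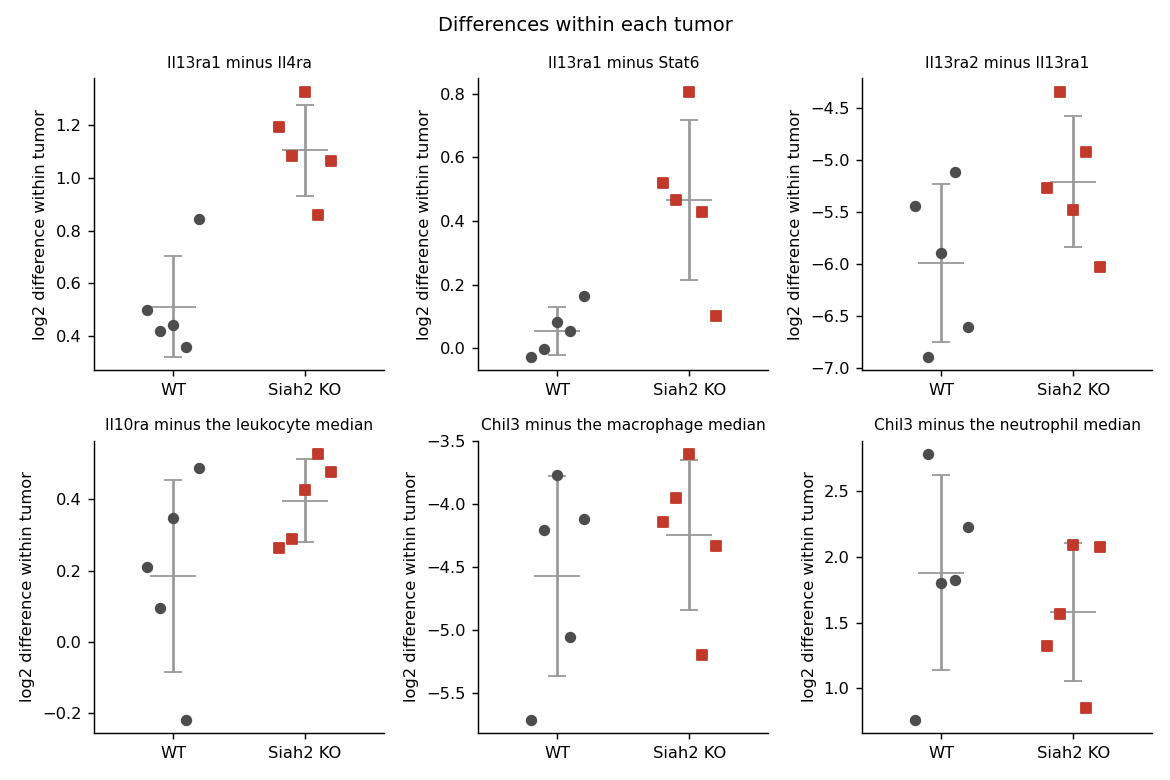
Log2 differences between a gene and another gene, or the median of a cell type's genes, within each of 5 WT (circles) and 5 Siah2 KO (squares) tumors, with mean and SD; each panel has its own axis. *Il13ra1* minus *Il4ra* does not overlap between groups. The groups of *Il13ra1* minus *Stat6*, of *Il13ra2* minus *Il13ra1* and of all 3 differences from a cell type's median overlap.

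*Chil3* encodes Ym1, a chitinase-like protein of alternatively activated mouse macrophages that neutrophils also make. It had 22.4, 68.6, 82.0, 40.6 and 75.1 normalized counts in WT tumors and 86.3, 100.1, 143, 63.1 and 78.9 in Siah2 KO tumors. In 3 of 5 Siah2 KO tumors it was above every WT tumor, and the others overlapped with WT. The mean was 94.2 ± 30.2 (SD, n = 5) against 57.7 ± 25.3 (SD, n = 5), a log2 fold change of 0.79 (SE 0.36) that did not pass the threshold (adjusted p = 0.10; exact permutation p = 0.079). Its 95% confidence interval, −0.01 to 1.58, reached 3.0-fold higher. Relative to the median of 8 macrophage genes the value was 0.33 (adjusted p = 0.48), and relative to the median of 6 neutrophil genes −0.30 (adjusted p = 0.48), both by the exact permutation test. Of the macrophage genes *Cd68* (0.87) and *Fcgr1* (0.72) were called higher, with summed levels of 17042 to 26356 in Siah2 KO and 13529 to 17721 in WT tumors. *Siglec1* (−0.44), *Mertk* (−0.06) and *Csf1r* (−0.02) were below 0 and not called, and the list had 2 higher and 1 lower after median scaling and 2 higher and 2 lower after quantile normalization. Of the neutrophil genes *Csf3r* (0.95) and *Trem1* (1.24) were called higher, with sums of 261 to 648 against 234 to 281. Of these 6 genes 3 had means under 20, and *Ltf* was at the floor in 5 Siah2 KO and 4 WT tumors. The neutrophil median thus rests partly on low counts, and with a floor of 20 *Chil3* relative to it was 0.24.

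**Figure D3:**
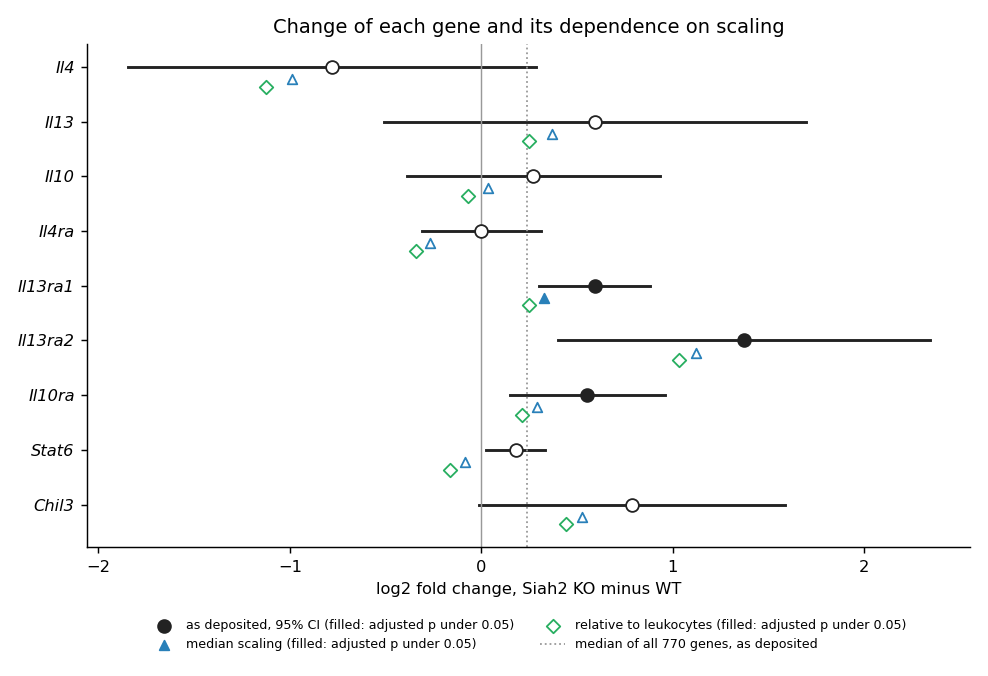
Log2 fold change, Siah2 KO minus WT, of each gene as deposited (circles, bars 95% confidence interval), after scaling to equal medians (triangles) and relative to the leukocyte median (diamonds); filled symbols passed an adjusted p under 0.05 and the dotted line is the median of all 770 genes. *Il13ra1*, *Il13ra2* and *Il10ra* are filled as deposited, *Il13ra1* alone after median scaling, and none relative to leukocytes.

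The 3 cytokine genes were near background. The 8 negative control probes, which have no target in the sample, reached between 2.37 and 10.72 counts after background subtraction in single tumors, in each of which the highest of them serves as the mark. *Il4* was above it in 3 WT tumors and 1 Siah2 KO tumor, *Il13* in 1 WT and 3 Siah2 KO tumors, and *Il10* in 3 WT and 4 Siah2 KO tumors.

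*Il4* had 8.01, 3.28, 11.4, 4.97 and 1.83 normalized counts in WT tumors and 1.11, 5.72, 1.26, 5.49 and 1.59 in Siah2 KO tumors, of which tumors 1 and 3 were at the floor of the deposited values. The groups overlapped, and the log2 fold change of −0.78 (SE 0.48) did not pass the threshold (adjusted p = 0.22). *Il13* had 2.27, 2.31, 4.93, 8.93 and 4.72 in WT and 6.44, 8.92, 17.7, 6.97 and 1.59 in Siah2 KO tumors. Siah2 KO tumor 3 was highest and Siah2 KO tumor 6 lowest of all 10, and the log2 fold change was 0.59 (SE 0.50, adjusted p = 0.36). *Il10* had 9.93, 11.1, 3.10, 7.61 and 10.5 in WT and 10.9, 7.32, 8.83, 8.45 and 14.0 in Siah2 KO tumors. These groups overlapped, with WT tumor 4 lowest and Siah2 KO tumor 6 highest, and the log2 fold change was 0.27 (SE 0.30, adjusted p = 0.50). No difference in any of the 3 cytokine genes was detected. The 95% confidence intervals, −1.85 to 0.29 for *Il4*, −0.51 to 1.70 for *Il13* and −0.39 to 0.93 for *Il10*, leave room for changes as large as those of the receptor chains.

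**Figure D4:**
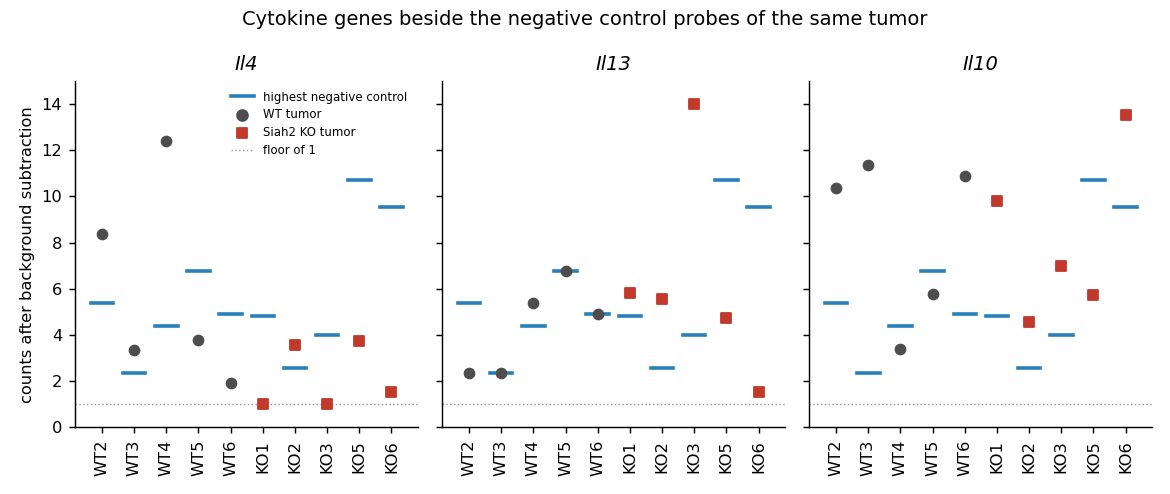
Counts after background subtraction (linear axis) of *Il4*, *Il13* and *Il10* in each WT (circles) and Siah2 KO (squares) tumor, with the highest of 8 negative control probes of the same tumor as a blue bar and the floor of 1 as a dotted line. *Il4* and *Il13* are each above the bar by more than 0.5 counts in 4 of 10 tumors and *Il10* in 7 of 10.

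Genes that carry the signal onward, or brake it, were called higher in 4 of 8 cases and lower in none. *Il2rg*, the common gamma chain, averaged 335 ± 91.5 (SD, n = 5) normalized counts in Siah2 KO against 198 ± 26.5 (SD, n = 5) in WT tumors and rose by 0.73 (SE 0.18, adjusted p = 0.0079). *Socs1*, an inhibitor of JAK kinases, rose by 0.98 (SE 0.24, adjusted p = 0.0083) and *Socs3*, which inhibits gp130-type receptors, by 0.69 (SE 0.14, adjusted p = 0.0040). *Il2rg*, *Socs1* and *Socs3* did not overlap between groups. *Stat3*, the factor that IL-10 activates, rose by 0.31 (SE 0.11, adjusted p = 0.041), with 4 of 5 Siah2 KO tumors beyond the highest WT tumor. The call of *Stat3* ended after median scaling, at 0.043 (adjusted p = 0.76), and its sign turned after quantile normalization, at −0.11 (adjusted p = 0.33), and relative to leukocytes, at −0.03 (adjusted p = 0.89). The kinases *Jak1*, *Jak2*, *Jak3* and *Tyk2* were not called, at 0.03 to 0.18. The list's median was 0.24, close to that of all genes. None of its genes passed after positive control scaling and 3, without *Stat3*, after median scaling, while quantile normalization gave 2 higher and 2 lower. Relative to leukocytes 1 was called higher and 0 lower, and relative to macrophages 0 higher and 3 lower.

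Of 12 genes known to be induced by IL-4 or IL-13, 2 were called higher, 4 lower, and 6 were not called, with a median log2 fold change of −0.19. *Arg1*, arginase 1, had 900 to 4871 normalized counts in Siah2 KO and 234 to 1353 in WT tumors. In 4 of 5 Siah2 KO tumors it exceeded the highest WT value, and the log2 fold change was 2.06 (SE 0.55, adjusted p = 0.014). *Ccl11*, eotaxin, which draws eosinophils, ran from 171 to 512 in Siah2 KO and from 77.6 to 119 in WT tumors. Its groups did not overlap, and it rose by 1.72 (SE 0.26, adjusted p = 0.00094).

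The 4 genes that fell were *Mrc1*, *Ccl17*, *Ccl22* and *Cdh1*. *Mrc1*, the macrophage mannose receptor CD206, fell by 0.89 on the log2 scale (SE 0.25, adjusted p = 0.017), with 4 of 5 Siah2 KO tumors below all WT tumors. *Ccl17* ran from 1.03 to 22.7 normalized counts in Siah2 KO tumors, 2 of them at the floor, and from 43.3 to 171 in WT tumors, while *Ccl22* ran from 33.5 to 106 against 128 to 223. Both encode ligands of CCR4, and neither overlapped between groups. *Cdh1*, E-cadherin, fell by 0.71 on the log2 scale (SE 0.24, adjusted p = 0.035). The counts of 2 higher and 4 lower were unchanged after median scaling, quantile normalization and relative to leukocytes or macrophages, and were 2 and 3 after positive control scaling. *Arg1*, *Chil3* and *Mrc1*, which are often read together as markers of alternatively activated macrophages, thus had values of 2.06, 0.79 (not called) and −0.89.

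**Figure D5:**
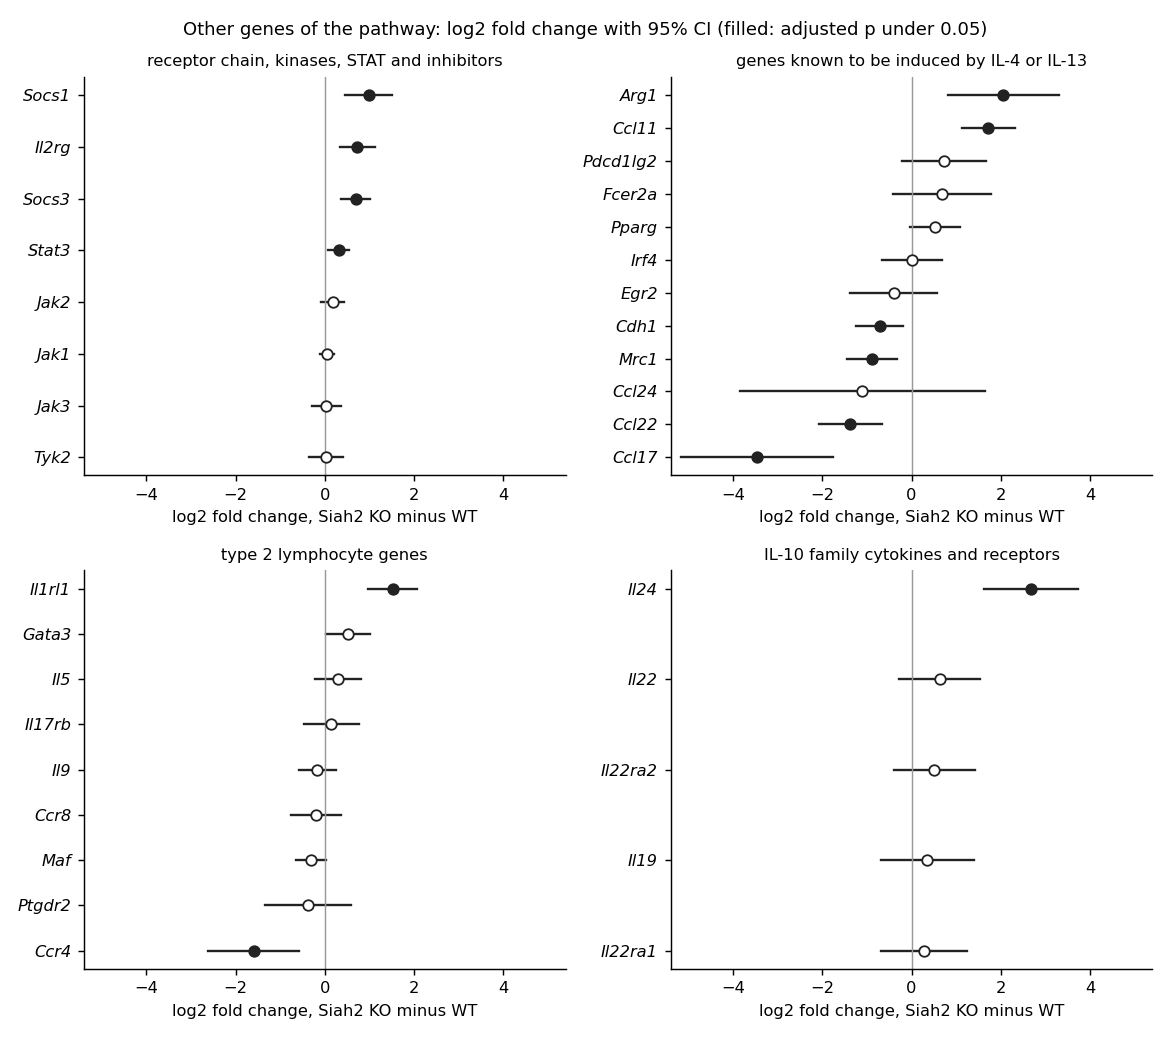
Log2 fold change with 95% confidence interval, Siah2 KO minus WT, of the other genes of the pathway in 4 lists, filled where the adjusted p was under 0.05. The genes known to be induced by IL-4 or IL-13 run from −3.46 (*Ccl17*) to 2.06 (*Arg1*), whereas the receptor, kinase, STAT and inhibitor genes run from 0.03 to 0.98.

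Among 9 genes of type 2 lymphocytes 1 was called higher and 1 lower. *Il1rl1*, which encodes the IL-33 receptor ST2 of type 2 lymphoid cells, regulatory T cells and mast cells, had 1048 to 2537 normalized counts in Siah2 KO and 458 to 651 in WT tumors. The groups did not overlap, and it rose by 1.52 (SE 0.24, adjusted p = 0.0011). Its means, 1706 in Siah2 KO and 573 in WT tumors, were far above those of the other genes of this list. *Maf*, the next most abundant, averaged 171 and 212, and the T cell gene *Cd3g* 310 and 161. Levels of different genes depend on their probes, and which cells carried *Il1rl1* was not tested. *Ccr4*, the receptor of the *Ccl17* and *Ccl22* products, fell by 1.6 on the log2 scale (SE 0.46, adjusted p = 0.019), with 3 Siah2 KO tumors at the floor. *Gata3*, the main transcription factor of these cells, had 0.52 (SE 0.22, adjusted p = 0.088), and 6 of the 9 genes, *Il5* and *Il9* among them, had means under 20. The call of *Il1rl1* stood beside a T cell list in which *Cd3d*, *Cd3e* and *Cd3g* of 7 genes were called higher (0.71 to 0.93), with summed levels of 623 to 1207 normalized counts in Siah2 KO and 489.96 to 625 in WT tumors. *Cd6* (−0.23) and *Cd5* (−0.02) were below 0 and not called, and after median scaling *Cd6* was called lower, at −0.48 (adjusted p = 0.017), and *Cd3e* lost its call (adjusted p = 0.11). The part of T cells in the result was not tested.

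Of 5 other genes of the IL-10 family of cytokines and receptors, *Il24* was called. It had 17.3 to 66.5 normalized counts in Siah2 KO tumors and 1 to 9.52 in WT tumors, 1 of them at the floor. It rose by 2.68 (SE 0.47, adjusted p = 0.0016), and its groups did not overlap. It was the only call of this list under each of the scalings tried. All 5 genes had means under 20 over the 10 tumors, and *Il19*, *Il22*, *Il22ra1* and *Il22ra2* were not called, at 0.28 to 0.63.

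Marker genes of cells that are known sources or targets of these cytokines, and of cells that are not leukocytes, also differed. Of 7 genes of mast cells, basophils and eosinophils, 3 were called lower: *Ms4a2* (−0.87), *Il5ra* (in all 5 Siah2 KO tumors at the floor, 1.83 to 11.6 in WT) and *Ccr3* (19.2 ± 13.7 against 2.33 ± 1.99 in Siah2 KO, SD, n = 5 each). These 3 were among 4 of the 7 genes with means under 20. The more abundant *Cma1* (−0.43, adjusted p = 0.066) and *Fcer1a* (−0.19, adjusted p = 0.44) were not called. The list summed to 300.5 to 445 normalized counts in Siah2 KO and 372.5 to 803 in WT tumors, where *Tpsab1* reached 285 in 1 tumor against a median of 16.85. *Ccr3*, the eotaxin receptor of eosinophils, thus fell where the eotaxin gene *Ccl11* rose. All 4 fibroblast genes were called lower (*Col1a1*, *Col3a1*, *Fap* and *Pdgfrb*, −0.41 to −1.97), with sums of 10332 to 12326 against 16494 to 21344. Fibroblasts are known to express *Il13ra1*, *Il13ra2* and *Ccl11*, which were higher where the fibroblast genes were lower. Of the endothelial genes *Pecam1* was called higher (0.88) and *Cdh5* and *Vwf* lower (−0.45 and −0.79) of 6, and sums of 676 to 783 against 700.35 to 809. After median scaling or quantile normalization, and relative to leukocytes, 5 of the 6 were called lower and *Pecam1* higher. The genes listed for melanoma cells were *S100b*, *Mcam* and *Cspg4*, and whether other cells of the tumors carried them was not tested. *Mcam* and *Cspg4* were present in all tumors, whereas *S100b* had 6.29 to 26.7 normalized counts in WT tumors and was at the floor in 3 Siah2 KO tumors. *Cspg4* and *S100b* were called lower, and the 3 genes summed to 224 to 405 against 438 to 594. No marker was at the floor in all 10 tumors, and the part of these cells in the changes of the 9 genes was not tested.

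The genes that varied most alike with *Il13ra2* across the 10 tumors, once each group's mean was taken off, were *Klrb1c* (Pearson's r = 0.91), *Hsd11b1* (0.78) and *Cd27* (0.77). For *Chil3* they were *Il12rb2* (0.86), *Ccl12* (0.83) and *Irgm2* (0.83). These are descriptions over 601 genes with a mean of at least 20. With *Il13ra1* the value of *Il13ra2* was 0.45, and with *Il4ra* 0.63.

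STAT6 binds the letters TTCNNNNGAA, and other STAT factors prefer TTCNNNGAA with 1 base less in the middle. Both motifs read the same on either strand, so a search of 1 strand covers both. Promoters of 300 bases (RefSeq, GRCm38.p6) were found for 7 of the 9 genes, 8 promoters in all, and not for *Il10* and *Il10ra*. TTCNNNNGAA was in 1 of the 8, that of the upstream of the 2 *Il4* starts. TTCNNNGAA was in 2, those of *Chil3* and of the downstream *Il4* start. The shares over 695 promoters of panel genes were 8.35% and 11.9%, and over all 32851 promoters 6.95% and 8.30%. Promoters were found for 8 of the 12 induced genes, 16 in all. Of these 3 held TTCNNNNGAA, those of *Ccl17*, *Fcer2a* and *Pdcd1lg2*, and 1 held TTCNNNGAA, that of *Ccl17*. The stretches below show a motif in capitals with its neighbouring bases, for *Il4* and *Chil3* and for *Ccl17* and *Socs3*, the called genes of the IL-4-induced and the receptor and inhibitor lists whose promoters held one. They lie at chr11:53618793-53618862 (minus strand), chr3:106167698-106167766 (minus), chr8:94810269-94810338 (plus) and chr11:117969482-117969550 (minus), and are written 5′ to 3′ along the gene.
Il4: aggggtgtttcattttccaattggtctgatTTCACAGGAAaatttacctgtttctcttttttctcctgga
Chil3: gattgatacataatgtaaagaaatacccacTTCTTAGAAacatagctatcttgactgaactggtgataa
Ccl17: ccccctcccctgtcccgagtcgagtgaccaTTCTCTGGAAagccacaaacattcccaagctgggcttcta
Socs3: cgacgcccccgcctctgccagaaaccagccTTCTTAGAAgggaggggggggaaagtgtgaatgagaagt

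These motifs begin 167, 172, 154 and 154 bases before the gene start. The genes that carry them moved in different directions: *Ccl17* fell, *Socs3* rose, and *Chil3* (0.79) and *Il4* (−0.78) were not called. *Il13ra1*, *Il13ra2*, *Il4ra*, *Il13* and *Stat6* held neither motif in this window. A match is a description of the sequence and not a bound site.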

How the data were processed

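RNA of 5 WT and 5 Siah2 KO tumors was measured on the mouse NanoString panel, with 784 probes (750 endogenous genes, 20 reference genes, 6 positive and 8 negative controls). The deposited signal is a normalized count per probe, made by the authors with nSolver, scaled to the 20 reference genes. The deposited values also show a background constant, subtracted per tumor, and a floor of 1 before scaling; in every tumor 100% of values under 150 lay within 0.1 of a step of 1 count. The constant is not given in the sources used here, so raw counts and counting intervals are not given. Between 39 and 84 genes per tumor were at the floor, and their fold changes are uncertain. Replicate numbers are those of the labels.

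From these values log2(value + 1) was compared with lmFit and eBayes of limma 3.58.1 (R 4.3.3), two-sided, with Benjamini-Hochberg adjustment over 770 genes, and confidence intervals are at 95%. Single genes were also tested by a two-sided exact permutation test over all divisions of the tumors into 5 and 5. Differences within tumors were tested in the same way, adjusted over 6. In simulated Siah2 KO and WT groups with 200 of 770 genes changed by 1 (log2), the steps recovered 80% of them, and 4.19% of the 167 calls were false. Genes were drawn independently and without a scaling shift. These rates therefore do not carry over to smaller changes or to the shift in the real values. All 9 genes are named, with the called genes of each list (otherwise the 2 most abundant) and the 3 genes most alike to *Il13ra2* and *Chil3*. Uncalled genes of the pathway lists, and the motif search, were added after values were seen. The genes and lists were chosen with earlier results of these data known. Alternatives were other scalings, pseudocounts, floors and filters, endogenous genes alone, values relative to leukocytes or macrophages, the methods' t-test, an intensity trend, a replicate block, and leaving out each tumor. Plots used Python 3.11.15 and matplotlib 3.10.9.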

Additional observations from a re-analysis of the deposited data

How the results depend on the processing

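Across 12 to 14 alternatives per gene, *Il4*, *Il13* and *Chil3* kept their direction and stayed above the threshold. *Il13ra1* minus *Il4ra* was 0.54 to 0.67 with an adjusted p of 0.048 throughout, where groups that stay apart leave the exact test little room. This difference was not run under other scalings. Under median scaling 1 gene was called, *Il13ra1*, with 1.12 for *Il13ra2*, 0.29 for *Il10ra* and −0.087 for *Stat6*. Under positive control scaling 1 was called, *Il13ra2*, with 0.43 for *Il13ra1* and 0.39 for *Il10ra*. Quantile normalization gave 1 gene higher (*Il13ra2*) and 2 lower, with −0.39 for *Il4ra*, 0.21 for *Il13ra1*, 0.22 for *Il10ra* and −0.24 for *Stat6*. Relative to leukocytes 0 were called by limma, with 0.25 for *Il13ra1*, 1.03 for *Il13ra2*, −0.070 for *Il10*, 0.21 for *Il10ra* and −0.16 for *Stat6*. Relative to macrophages 1 was called, *Il4ra* lower at −0.46, with 0.13 for *Il13ra1*, 0.91 for *Il13ra2*, −0.19 for *Il10*, 0.10 for *Il10ra* and −0.28 for *Stat6*. *Stat6*, at 0.18 throughout, was called with a pseudocount of 10, a floor of 20, a filter at a mean of 20, an intensity trend and the methods' t-test. That test gave *Il13ra2* an adjusted p of 0.053 at the same 1.37. It called 4 of the 9 genes at an unadjusted p under 0.05 and 3 after Benjamini-Hochberg adjustment. Of all genes it called 379 and 314, in this order. With a floor of 20, *Chil3* relative to neutrophils was 0.24, and *Il4*, *Il13* and *Il10* could not be fitted. The causes of these shifts were not tested.

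The replicate block uses 8 tumors, those whose number occurs in both groups. Correlations of same-numbered tumors were 0.035, 0.050, 0.17 and 0.35, so the numbers were not taken as pairs, and only for 5 and 6 was the same number the best match. With the replicate block 1 gene was called, *Il13ra2*, with 0.58 for *Il13ra1* (adjusted p = 0.053), 0.60 for *Il10ra*, 0.029 for *Il4ra* and −0.044 for *Il10*. The same 8 tumors without a block also gave 1 call, *Il13ra1*, with 1.40 for *Il13ra2*, 0.60 for *Il10ra*, 0.029 for *Il4ra* and −0.044 for *Il10*. Of all genes 235 were called with the block and 232 without it, against 316 in 10 tumors and 95 after positive control scaling.

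With 1 tumor left out in turn, between 1 and 3 genes were called, 1 of them without WT tumor 4 or Siah2 KO tumor 3. The log2 fold change was 1.14 to 1.69 for *Il13ra2*, 0.41 to 0.63 for *Il10ra*, −0.072 to 0.095 for *Il4ra* and −0.0051 to 0.38 for *Il10*. *Il13ra1* minus *Stat6* ran from 0.33 to 0.50. The planned edgeR test was not run, since the deposited counts lack an unknown constant and are not whole. In 18 groups of values, those of the 9 genes in WT and in Siah2 KO tumors, no tumor was flagged as outlying by Dixon's ratio. With 5 values per group this check finds only extreme values, so it does not show that no outlier is present. *Il10ra* was 0.41 without Siah2 KO tumor 5, the highest of its group.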
